A study of Mus musculus with 70 samples.

Results

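Tissue labelled anterior cingulate area (ACA) was set against frontal pole cortex (FRP) through 3 libraries each, 6 of the 70 bulk RNA-Seq libraries of a mouse atlas of brain regions that take part in energy balance. The libraries were picked by their region label alone, and no measured value entered the choice. All 6 came from untreated P56 male mice of the C57BL/6NTac strain, labelled C57BL/6, and no engineered allele or agent is given for either region. Each library held RNA of punch biopsies pooled over several mice, so a replicate is a pool rather than 1 animal, and the p-values measure the spread between such pools. The atlas had fewer adult mice than adult libraries, so libraries of different regions share animals. Which ACA and FRP libraries do so is not given, and the tests treat them as independent. The entorhinal area (ENT), with 3 libraries of the same age and strain, is set beside them as one more cortical area. Levels are the authors' gene-level TPM, a length-corrected share of the transcripts in a library. Differences are log2 fold changes of ACA minus FRP from estimated counts summed per gene, so that a negative value means a higher level in FRP, and the ± beside them is a standard error. A gene was called when the adjusted p of edgeR's quasi-likelihood test was under 0.05. The 6 libraries held 17465962 to 20647884 estimated counts and 14607 to 14950 genes at 1 TPM or more.

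Both regions are neocortex, built of glutamate-releasing projection neurons in layers, GABA-releasing interneurons, glia and vessels. The ACA is a medial frontal area linked to action monitoring, attention and the affective side of pain, and both areas were included in the atlas as executive regions. The FRP is the rostral tip of the cortex and lies next to the olfactory bulb. In the bulb, mitral and tufted cells are the glutamate-releasing output neurons, while granule and periglomerular cells are GABA-releasing interneurons, part of them also making dopamine. Because the tissue was taken in bulk, a larger number of cells of a type and more RNA per cell cannot be told apart in any of the values below.

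The libraries of the FRP were less alike than those of the ACA, and FRP replicate 2 stood apart from FRP replicates 1 and 3. Across genes, as a description of library pairs, Pearson's r on the log2(TPM + 1) scale was 0.9905 to 0.9912 among the ACA libraries and 0.9881 to 0.9896 among the FRP libraries. The library most like FRP replicate 2, out of the other libraries of the series, was ACA replicate 2 (r = 0.9908), while FRP replicates 1 and 3 were most like each other (r = 0.9896). The mitochondrial share of TPM was 10.16% in FRP replicate 2, against 5.7% and 6.67% in FRP replicates 1 and 3, 7.15% to 7.62% in the ACA libraries and a median of 7.71% over the 57 adult libraries. Summed markers of the olfactory bulb and of oligodendrocytes also differed within the FRP, as given below. There the bulb sum was far highest in FRP replicate 3, and the oligodendrocyte sum was highest in FRP replicate 1. Among edgeR fits that left out 1 library, the number of calls changed most without FRP replicate 2. It also changed with the test and with the source of the spread, as given below. The calls of each gene list are therefore given with FRP replicate 2 and without it.

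With all 6 libraries, 15127 genes were tested and 4 were called: Lypd1, Trpc6 and Vwa5b1 were higher in the ACA, and Gsn was higher in the FRP. The background shares were 0.0198% of tested genes called higher in ACA and 0.00661% called higher in FRP. Of the 15127 genes, 2191 had an unadjusted p under 0.05, the background for such counts in the lists below. Without FRP replicate 2, 348 of 15426 genes were called higher in ACA (2.26%) and 679 higher in FRP (4.4%). With FRP replicate 2 as the only FRP library, a fit in which that lone library is assumed to vary like the ACA libraries, 12 of 15696 genes were called higher in ACA (0.0765%) and 45 higher in FRP (0.287%). When the spread between replicates was instead taken from all 57 adult libraries, 108 of 17771 genes were called higher in ACA (0.608%) and 522 higher in FRP (2.94%). DESeq2 on the same 6 libraries called 187 of 15616 genes with an adjusted p higher in ACA (1.2%) and 342 higher in FRP (2.19%). In TPM, all 3 ACA libraries lay above all 3 FRP libraries for 8.52% of 14946 tested genes, and the reverse held for 8.6%. Leaving out any 1 ACA library gave 1 call, leaving out FRP replicate 1 gave 5 and leaving out FRP replicate 3 gave 9. Beyond the 4 calls, 16 genes higher in ACA and 18 higher in FRP had an adjusted p from 0.05 to 0.1.

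**Figure D1:**
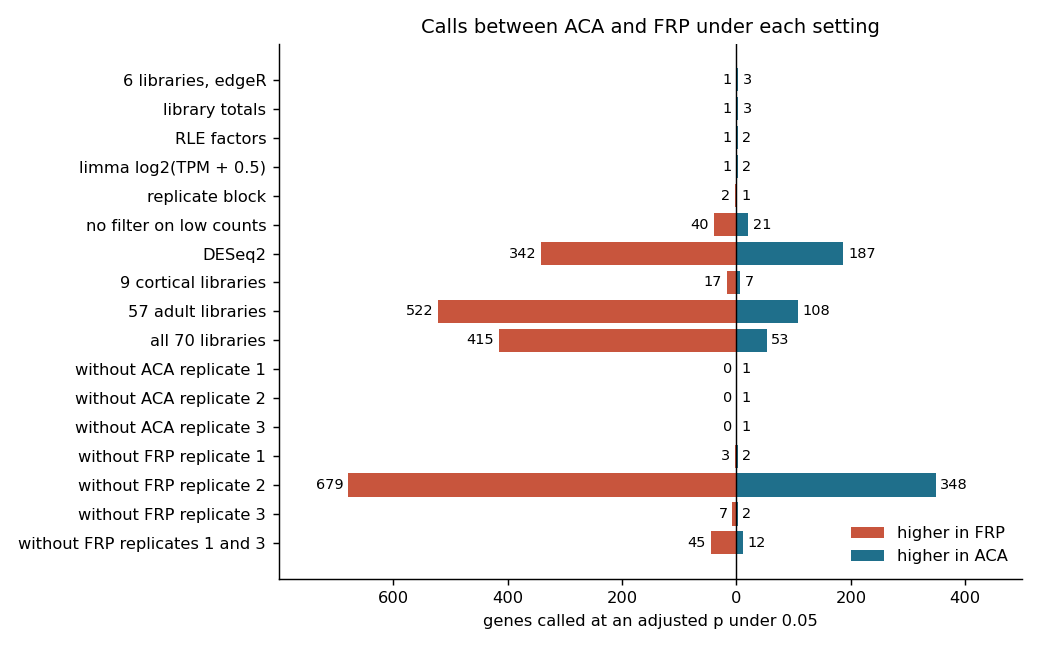
Number of genes called at an adjusted p under 0.05 (horizontal axis; blue bars to the right, higher in ACA; red bars to the left, higher in FRP) under each setting of the comparison (vertical axis). The 6-library edgeR fit calls 3 and 1 genes, and the fits without FRP replicate 2 (348 and 679) and with the spread of 57 adult libraries (108 and 522) stand far above it.

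Lypd1, a small membrane-anchored protein of the Ly6 family that binds nicotinic acetylcholine receptors (ENSMUSG00000026344.9, GRCm38 chromosome 1, 125867622 to 125913101, minus strand), gave the smallest adjusted p. Its level was 93.2, 95.4 and 92.4 TPM in the ACA libraries and 37.6, 29.3 and 36.8 TPM in the FRP libraries. No FRP library came near an ACA library, and the difference was 1.55 ± 0.07 on the log2 scale (adjusted p = 0.00051), with 1.51 without FRP replicate 2 and 1.66 with it alone. In the ENT it stood at 79.0 TPM ± 8.12 (SD, n = 3), so the FRP was the cortical area with the low level. Over the 18 adult regions the mean of the ACA was second only to that of the nucleus accumbens (161.6 TPM), and the FRP ranked 12.

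Trpc6, a diacylglycerol-gated calcium-permeable channel (ENSMUSG00000031997.9, chromosome 9, 8544142 to 8680741, plus strand), was the second gene called. It was listed at 11.8, 10.9 and 11.9 TPM in the ACA and at 5.32, 5.40 and 5.57 TPM in the FRP, and the ACA mean was the highest of the 18 adult regions. The ACA exceeded the FRP by 1.12 ± 0.09 (adjusted p = 0.025), and the ENT, at 4.82 TPM ± 0.657 (SD, n = 3), was near the level of the FRP. Vwa5b1 (ENSMUSG00000028753.12, chromosome 4, 138565360 to 138635884, minus strand), whose protein carries a von Willebrand factor A domain, was called from its counts at 0.91 ± 0.09 (adjusted p = 0.049). Its groups did not overlap in counts scaled to library size (CPM), at 24.3 to 27.6 CPM in the ACA and 13.4 to 14.7 CPM in the FRP. In TPM they did overlap, since ACA replicate 2 was listed at 6.88 and FRP replicate 2 at 7.80, so this gene falls outside the rule for named genes and is named because there were only 4 calls.

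Gsn encodes gelsolin, an actin-severing protein abundant in oligodendrocytes (ENSMUSG00000026879.14, chromosome 2, 35256380 to 35307892, plus strand), and was the single gene called higher in the FRP. It was at 17.3, 17.2 and 20.6 TPM in the ACA and 44.1, 33.2 and 38.1 TPM in the FRP. The groups did not overlap, with the FRP also above the ENT (21.9 TPM ± 4.34, SD, n = 3) and the ACA the lowest of the 18 adult regions. The difference was -1.12 ± 0.11 (adjusted p = 0.047), -1.17 without FRP replicate 2 and -1.01 with that library alone. Myelin genes, whose summed level was 909.3 to 970.8 TPM in the ACA and 1278 to 2722 TPM in the FRP, lay on the same side, and their part in the Gsn difference was not tested.

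**Figure D2:**
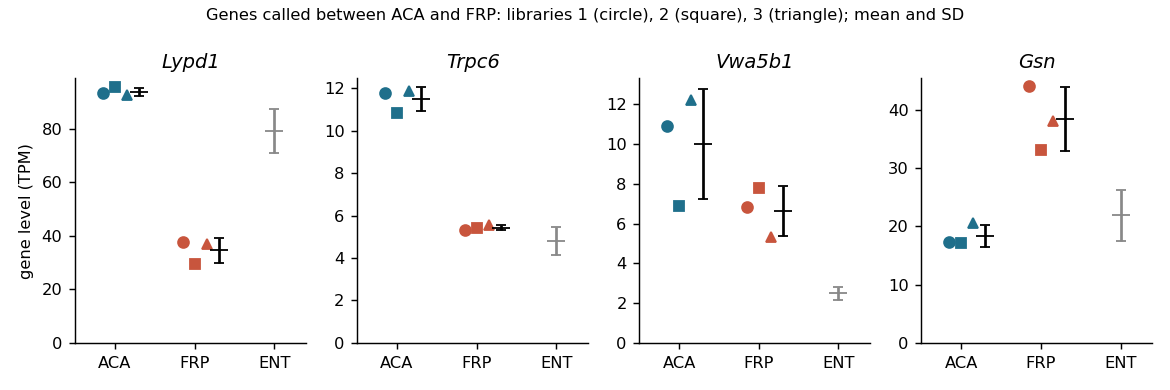
Level in TPM (vertical axis, from 0) of the 4 called genes in each ACA library (blue) and FRP library (red), with the mean and SD at their right and the mean and SD of the 3 ENT libraries in grey. Lypd1, Trpc6 and Gsn do not overlap between ACA and FRP, whereas Vwa5b1 does in TPM.

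The other genes named from here on were mostly chosen after their values were seen. They are grouped by what they do, and where an adjusted p is given for 1 fit only, it is that of all 6 libraries. Where a second fit is named beside it, the gene need not be called in other fits. On the side of the ACA, the 12 largest differences called with the spread of 57 adult libraries, non-overlapping in TPM and at 5 TPM or more, included Wfdc18, Lypd1, Trpc6, Adra1b, Susd5, Pdlim1, Metrnl, Grik4, Herc6, Gfra2 and Htr1b. Wfdc18, a small secreted whey acidic protein, was at 23.1, 23.7 and 23.2 TPM in the ACA and 7.15, 7.92 and 8.90 TPM in the FRP. Its difference was 1.57 ± 0.19 (adjusted p = 0.057, and 0.010 without FRP replicate 2), and its level in the ACA was the highest of the 18 adult regions.

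Of the genes named, 3 encode neurotransmitter receptors. Adra1b, the alpha-1B adrenergic receptor for noradrenaline, was at 55.8, 59.2 and 50.01 TPM in the ACA and 28.9, 34.0 and 28.0 TPM in the FRP. Those 2 areas held the highest and second highest mean of the 18 adult regions, and the ENT was at 11.1 TPM ± 0.631 (SD, n = 3). The difference between them was 0.86 ± 0.15, with an adjusted p of 0.12 in the 6 libraries, 0.0056 without FRP replicate 2 and 0.015 with the adult spread. Grik4, a kainate-type glutamate receptor subunit, was at 19.99, 23.1 and 18.96 TPM against 13.1, 11.3 and 12.2 TPM (0.75 ± 0.10, adjusted p = 0.077). The serotonin receptor gene Htr1b (0.67 ± 0.11, adjusted p = 0.11) did not overlap between the areas either, but missed the threshold in the 6 libraries.

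Gfra2, the co-receptor for the growth factor neurturin, had its highest adult mean in the ACA (131.1 TPM ± 7.60, SD, n = 3) and its second highest in the FRP (79.4 TPM ± 14.7, SD, n = 3), with a difference of 0.74 ± 0.14 (adjusted p = 0.12). The next 3 genes encode secreted signals and were picked after their values were seen. Rspo2, an R-spondin that strengthens Wnt signalling, was at 28.7, 28.2 and 28.4 TPM in the ACA and 11.9, 14.46 and 16.3 TPM in the FRP (1.02 ± 0.11, adjusted p = 0.055). Bmp3, a bone morphogenetic protein, was at 14.1 to 14.8 TPM against 9.17 to 9.89 TPM (0.64 ± 0.07, adjusted p = 0.055). Bdnf, the neurotrophin brain-derived neurotrophic factor, stood at 22.9, 24.5 and 19.8 TPM against 13.2, 16.5 and 12.5 TPM. Its difference of 0.70 ± 0.15 had an adjusted p of 0.13 with the 6 libraries, 0.0097 without FRP replicate 2 and 0.2 with the adult spread. The ACA was again the adult region with the highest mean. A pair of adhesion genes showed the same order with little spread: the protocadherin Pcdh19 (0.58 ± 0.07, adjusted p = 0.055) and the teneurin Tenm2 (0.56 ± 0.08, adjusted p = 0.079).

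A few receptor and peptide genes of feeding circuits, again picked after their values were seen, were higher in every ACA library. The lists of Ramp3, Grp and Cckbr did not lie on 1 side, as given below, and Esr1 was picked from outside the lists. Esr1, the estrogen receptor alpha, was low in both areas but not overlapping, at 3.43, 3.89 and 5.24 TPM in the ACA and 1.66, 1.39 and 1.04 TPM in the FRP (1.26 ± 0.15, adjusted p = 0.057). Ramp3, the accessory protein that turns the calcitonin receptor into an amylin receptor, was at 18.3, 18.6 and 22.4 TPM against 10.3, 7.99 and 10.4 TPM (1.08 ± 0.15, adjusted p = 0.077). Calcr itself, the calcitonin receptor, was listed at 0 to 0.0577 TPM in the 6 libraries and was not tested. Grp, the precursor of gastrin-releasing peptide, was at 15.1, 21.5 and 21.6 TPM against 7.69, 8.65 and 8.34 TPM (1.16 ± 0.18, adjusted p = 0.10). Cckbr, the brain receptor for cholecystokinin, differed by only 0.36 ± 0.07 (adjusted p = 0.12), and its 2 highest adult means were those of the ACA (71.7 TPM ± 3.85, SD, n = 3) and the FRP (56.6 TPM ± 2.74, SD, n = 3).

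On the side of the FRP, the 12 largest differences under the same rule were Eomes, Ms4a15, Scgn, Frmd7, Sp7, Tbx21, Doc2g, Shisa8, Th, Cdhr1, Sp8 and Shisa3. Of these, 7 belong to the list of 10 markers of the olfactory bulb and its sensory axons, Cdhr1, Tbx21, Eomes, Doc2g, Scgn, Sp8, Th, Prokr2, Omp and Frzb. In TPM, all 9 members of that list that could be tested were higher in every FRP library than in every ACA library, beside 8.6% of all tested genes, and their median difference was -5.07, beside -0.008 over all genes tested. None of the 9 was called by edgeR with all 6 libraries, and all 9 had an unadjusted p under 0.05. DESeq2 called 7 of the list, beside 2.19% of all genes. Called by edgeR were 8 of 9 without FRP replicate 2 (beside 4.4% of all genes), 6 of 9 with that library alone (beside 0.287%) and 8 of 10 with the adult spread (beside 2.94%), all higher in the FRP. The summed level of the list was 23.8 to 28.9 TPM in the ACA, 26.0 to 27.9 TPM in the ENT and 120.5, 111.8 and 469.4 TPM in FRP replicates 1, 2 and 3.

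Markers of the bulb's output neurons were highest in FRP replicate 3. Cdhr1, a protocadherin-related protein of mitral and tufted cells, was at 1.39, 1.74 and 1.60 TPM in the ACA and 13.4, 13.7 and 119.2 TPM in the FRP, and Doc2g, a C2-domain protein enriched in the same cells, at 2.37, 2.09 and 1.20 TPM against 19.4, 31.2 and 167.5 TPM. Eomes (Tbr2), a transcription factor of these neurons, was at 2.02, 3.58 and 21.9 TPM in the FRP, whereas the 3 ACA libraries together held 1 estimated count of it. Tbx21 followed the same order, with 1.29, 0.88 and 19.1 TPM in the FRP and 0.14 TPM or less in the ACA. In these genes FRP replicates 1 and 2 were nearer to each other, and FRP replicate 3 was far above both.

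For the next 4 genes, which bulb interneurons express, FRP replicate 2 was the lowest of the FRP libraries, though still above the ACA. Sp8, a zinc finger factor of interneurons bound for the bulb, was at 0.38, 0.36 and 0.40 TPM in the ACA and 13.9, 2.23 and 17.2 TPM in the FRP (-4.83 ± 0.71, adjusted p = 0.082). The calcium-binding protein gene Scgn was at 16.5, 4.40 and 34.2 TPM in the FRP, and the ACA libraries together held 1 estimated count. Th, the rate-limiting enzyme of dopamine synthesis, was at 0.89, 0.62 and 1.15 TPM in the ACA and 17.0, 14.8 and 54.03 TPM in the FRP (-5.07 ± 0.68, adjusted p = 0.077, and 0.0078 with FRP replicate 2 alone). Calb2, the calretinin gene, was at 12.4, 12.3 and 13.7 TPM in the ACA and 71.3, 48.9 and 284.6 TPM in the FRP (-3.34 ± 0.64, adjusted p = 0.12). Omp, the marker of olfactory sensory axons, was low everywhere, at 0.26 to 0.45 TPM in the ACA and 0.23 to 0.60 TPM in the FRP, and was not tested. Over the 18 adult regions, the FRP had the highest mean of Cdhr1, Doc2g, Tbx21, Scgn, Sp8 and Frzb, while the highest mean of Eomes was that of the uvula of the cerebellum (39.5 TPM).

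**Figure D3:**
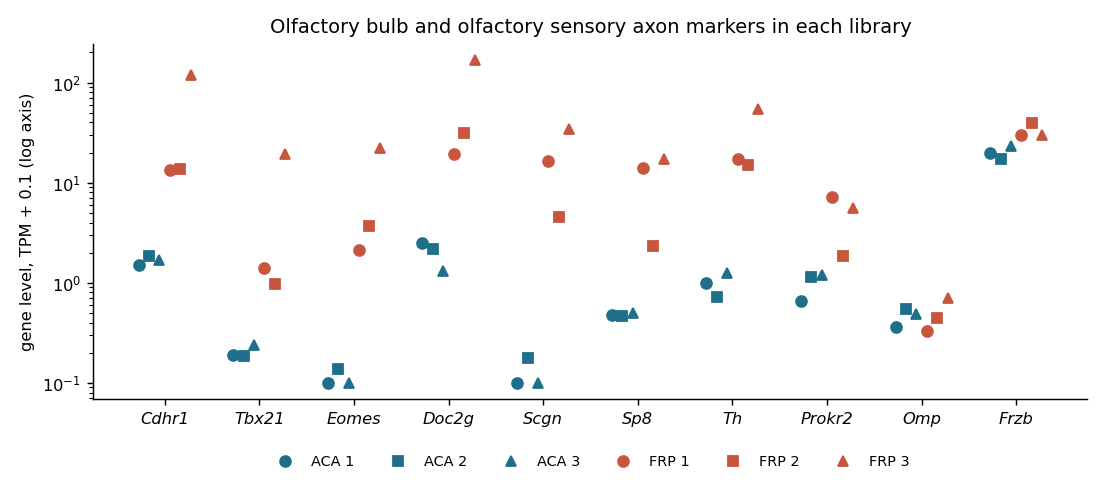
Level (vertical axis, TPM + 0.1 on a log axis) of the 10 markers of the olfactory bulb and olfactory sensory axons in the 3 ACA libraries (blue) and the 3 FRP libraries (red), with replicates 1, 2 and 3 as circles, squares and triangles. All markers but Omp are higher in every FRP library than in every ACA library, and FRP replicate 3 is the highest for Cdhr1, Tbx21, Eomes, Doc2g, Scgn, Sp8 and Th.

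Some transcription factor genes of GABA-releasing forebrain neurons, picked after their values were seen and from no list, were highest in FRP replicates 1 and 3. Dlx1, a homeobox factor of these neurons, was at 27.6, 26.4 and 29.9 TPM in the ACA and 120.3, 40.4 and 128.8 TPM in the FRP (-1.67 ± 0.34, adjusted p = 0.13, and 0.00034 without FRP replicate 2). Dlx2, Dlx5, Sp9, Pbx3, Tshz1 and Meis2 had the same order, with FRP replicate 2 between the ACA libraries and FRP replicates 1 and 3, and adjusted p of 0.12 to 0.15. Among these factors, the difference was largest for Pbx3, at 6.14, 5.06 and 9.60 TPM in the ACA and 65.4, 14.4 and 107.8 TPM in the FRP. Among 24 genes of cortical interneurons, none of the 23 tested was called by edgeR with all 6 libraries, and 8 had an unadjusted p under 0.05. DESeq2 called 1 higher in ACA and 3 higher in FRP, beside 1.2% and 2.19% of all genes. In TPM, 7 lay higher in every FRP library and 2 higher in every ACA library, beside 8.6% and 8.52% of all tested genes. Without FRP replicate 2, Gad1, Slc32a1, Adarb2, Calb2 and Ndnf were called higher in the FRP and Pvalb higher in the ACA, beside 4.4% and 2.26% of all genes. Gad1, the main GABA-synthesizing enzyme, was at 214.5, 224.5 and 196.3 TPM in the ACA and 435.0, 250.6 and 734.3 TPM in the FRP, and Gad2 at 39.3 to 44.7 TPM against 45.2 to 78.6 TPM. The peptide markers of other interneuron classes had positive differences: Vip, which overlapped, was at 44.3 TPM ± 1.73 in the ACA and 36.5 TPM ± 12.9 in the FRP (SD, n = 3), and Sst, which did not, at 628.7 TPM ± 35.9 against 494.3 TPM ± 44.9 (SD, n = 3, with 0.37 ± 0.09, adjusted p = 0.16). The part of the bulb markers in the differences of these interneuron genes was not tested.

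Myelin genes had higher levels in the FRP too, with no call by edgeR with all 6 libraries. An unadjusted p under 0.05 was found for 16, beside 2191 of all 15127 genes tested. DESeq2 called 9 higher in the FRP, beside 2.19% of all genes. All 18 tested members of the list of 19 oligodendrocyte and myelin genes had a negative difference, with a median of -0.95, and 12 of them lay higher in every FRP library than in every ACA library, beside 8.6% of all tested genes. Without FRP replicate 2, 15 of 19 were called (beside 4.4% of all genes), with that library alone 1 of 18 (beside 0.287%), and with the adult spread 11 of 19 (beside 2.94%), every one higher in the FRP. Mbp, the myelin basic protein, was at 366.1, 357.6 and 321.7 TPM against 1136, 450.9 and 653.7 TPM (-0.94 ± 0.27, adjusted p = 0.19), and Mobp at 82.4 to 93.5 TPM against 122.2 to 362.4 TPM. Enpp2, which choroid plexus also makes, was the member closest to 0 (-0.08 ± 0.19). The ACA had the lowest mean of the 18 adult regions for Mbp and Mobp, and the FRP ranked 15 for both.

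The summed level of the myelin list was 909.3 to 970.8 TPM in the ACA, 1172 to 1501 TPM in the ENT and 2722, 1278 and 1722 TPM in FRP replicates 1, 2 and 3. Sox10, a transcription factor of the whole oligodendrocyte lineage, was at 9.16, 10.7 and 10.2 TPM in the ACA and 19.3, 19.6 and 15.3 TPM in the FRP (-0.83 ± 0.14, adjusted p = 0.12), so that here FRP replicate 2 was not the lowest. The list of 6 oligodendrocyte precursor genes had a median of -0.253, with 4 negative members. Of these, 3 were higher in every FRP library, beside 8.6% of all tested genes. The summed level of the list was 99.6 to 105.6 TPM in the ACA and 109.9 to 147.3 TPM in the FRP. None of the 6 was called by edgeR with all 6 libraries, and 4 had an unadjusted p under 0.05. DESeq2 called 1 higher in the FRP and the fit without FRP replicate 2 called 1, beside 2.19% and 4.4% of all genes. The receptor gene Pdgfra and the proteoglycan gene Cspg4 had the other sign: Pdgfra was at 13.8 TPM ± 1.84 in the ACA and 11.96 TPM ± 0.253 in the FRP (SD, n = 3), and Cspg4 at 9.23 TPM ± 0.423 against 8.66 TPM ± 0.407 (SD, n = 3).

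**Figure D4:**
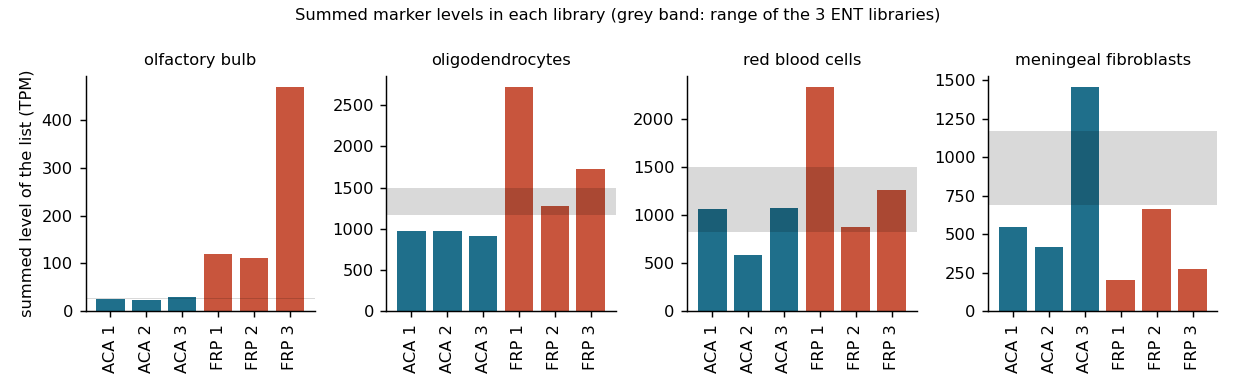
Summed level (vertical axis, TPM, from 0) of 4 marker lists in each ACA library (blue) and FRP library (red), with the range of the 3 ENT libraries as a grey band. The bulb list peaks in FRP replicate 3, the oligodendrocyte and red blood cell lists in FRP replicate 1, and the meningeal list in ACA replicate 3.

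Markers of other glia and of vessels gave no edgeR call with the 6 libraries or without FRP replicate 2. The 10 astrocyte, 10 microglial and 14 endothelial and mural genes had medians of -0.06, -0.007 and 0.022. They had 3, 0 and 0 unadjusted p under 0.05 and 1, 0 and 0 calls by DESeq2. The astrocyte call was higher in the FRP, beside 2.19% of all genes. In TPM, 4, 1 and 0 lay higher in every FRP library and none higher in every ACA library, beside 8.6% and 8.52% of all tested genes. With FRP replicate 2 alone the medians were -0.257, -0.117 and -0.188. Gfap, the intermediate filament of astrocytes, was the member that differed most, at 16.9, 8.72 and 40.0 TPM in the ACA and 56.5, 72.2 and 69.4 TPM in the FRP (-1.76 ± 0.38, adjusted p = 0.14, and 0.00014 with the adult spread). Aqp4, the astrocyte water channel, overlapped, at 13.5 to 24.7 TPM against 22.6 to 37.4 TPM. Fabp7, a fatty acid-binding protein of radial glia, astrocytes and olfactory ensheathing glia, was lowest in the ACA and highest in the FRP of the 18 adult regions, at 44.0, 22.4 and 45.7 TPM against 75.5, 136.6 and 189.7 TPM (-1.82 ± 0.37, adjusted p = 0.13). Meningeal fibroblast genes had a positive median of 0.907, with all 12 members positive. None was called by edgeR with the 6 libraries, and 3 had an unadjusted p under 0.05. DESeq2 called 1 and the fit without FRP replicate 2 called 1, both higher in the ACA, beside 1.2% and 2.26% of all genes. The summed level of the meningeal list ran from 413.8 to 1456 TPM in the ACA and from 203.8 to 663.0 TPM in the FRP, mostly Ptgds. Globin and other red blood cell genes summed to 580.8 to 1071 TPM in the ACA and 876.6 to 2335 TPM in the FRP, and none of the 5 was called by edgeR or DESeq2 or had an unadjusted p under 0.05. Of 3 tested choroid plexus genes none was called by edgeR with the 6 libraries and 2 had an unadjusted p under 0.05. Their median was -2.059, and 2 of 3 were higher in every FRP library, beside 8.6% of all tested genes. The list had 1 call, higher in the FRP, by DESeq2, without FRP replicate 2 and with the adult spread, beside 2.19%, 4.4% and 2.94% of all genes. Aqp1, a water channel of choroid plexus, was at 0.08, 0.08 and 0.31 TPM in the ACA and 0.81, 7.79 and 4.81 TPM in the FRP (-4.80 ± 0.96, adjusted p = 0.13, and 0.044 without FRP replicate 2). Ttr, the defining gene of that tissue, was at 0.84 TPM or less in the ACA and 0.93 to 2.08 TPM in the FRP. Of the ependymal list, Tmem212 was listed at 0 in all 6 libraries and none of the 4 tested was called by edgeR or DESeq2, with 1 unadjusted p under 0.05. No member of the striatal list was called by edgeR with the 6 libraries (3 unadjusted p under 0.05). DESeq2 called 1 higher in the FRP and the fit without FRP replicate 2 called 1, beside 2.19% and 4.4% of all genes. In TPM, 3 of the 10 members lay higher in every FRP library and 1 higher in every ACA library, beside 8.6% and 8.52%. The list summed to 144.7 to 154.6 TPM in the ACA and 239.3, 158.1 and 220.5 TPM in FRP replicates 1, 2 and 3. Its member Penk is given with the peptide genes below. Drd1, the D1 dopamine receptor gene, was low in the ACA (3.59 to 4.33 TPM) and the FRP (3.61 to 4.34 TPM) beside the nucleus accumbens (138.7 TPM).

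Projection neuron genes were high in both areas. Slc17a7 (VGLUT1), the vesicular glutamate transporter of cortical projection neurons, was at 1385 TPM ± 85.9 in the ACA, the highest of the 18 adult regions, and 1184 TPM ± 44.2 in the FRP, the third highest (SD, n = 3, with 0.24 ± 0.09, adjusted p = 0.30). All 7 genes of the pan excitatory list had a positive difference with the 6 libraries (median 0.157), and with FRP replicate 2 alone the median was -0.111. None was called by edgeR with the 6 libraries (3 unadjusted p under 0.05). DESeq2 called 1 higher in the ACA and the fit without FRP replicate 2 called 2, beside 1.2% and 2.26% of all genes. Neurod6, a transcription factor of these neurons, was at 135.3 to 146.9 TPM against 80.2, 118.7 and 106.6 TPM (0.49 ± 0.15, adjusted p = 0.21, and 0.022 without FRP replicate 2). FRP replicate 2 was the FRP library nearest to the ACA.

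All 5 layer 6 corticothalamic genes had a negative difference (median -0.552), with no call by edgeR with the 6 libraries (2 unadjusted p under 0.05). DESeq2 called 2 and the fit without FRP replicate 2 called 3, all higher in the FRP, beside 2.19% and 4.4% of all genes. Rprm, a cell cycle arrest gene used as a layer 6 marker, was at 26.9, 31.0 and 26.2 TPM in the ACA and 60.5, 43.0 and 63.3 TPM in the FRP, its highest adult mean (-0.96 ± 0.13, adjusted p = 0.079). Syt6, a synaptotagmin, was at 3.20 to 3.59 TPM against 21.8, 6.70 and 44.7 TPM (-2.81 ± 0.58, adjusted p = 0.13), an order across the FRP libraries that it shared with Calb2 and Dlx1, while Foxp2 (-0.46 ± 0.41) and Tle4 (-0.16 ± 0.21) overlapped. The layer 4 factor Rorb was at 10.4, 7.67 and 10.8 TPM in the ACA and 11.97, 20.4 and 13.5 TPM in the FRP, its highest adult mean (-0.63 ± 0.23, adjusted p = 0.27). Here FRP replicate 2 was the library farthest from the ACA.

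None of the 7 genes of layer 2/3, 5 of layer 4, 12 of layer 5 and 4 of layer 6b tested was called by edgeR with the 6 libraries, and 2, 3, 3 and 1 of them had an unadjusted p under 0.05. DESeq2 called 1 member of each of these lists, higher in the FRP, beside 2.19% of all genes. In the fit without FRP replicate 2, 1 gene each of layers 2/3 and 6b was called higher in the FRP, none of layer 4, and 1 of layer 5 in each direction. Over all genes, that fit called 4.4% higher in FRP and 2.26% higher in ACA. The upper-layer gene Cux2 (0.43 ± 0.23, adjusted p = 0.44, and 0.034 with the adult spread) and the layer 5 gene Fezf2 (0.35 ± 0.16, adjusted p = 0.38) had their highest adult means in the ACA, at 82.1 TPM ± 11.95 and 48.8 TPM ± 5.65 (SD, n = 3). Cux1 had the opposite sign, at 26.4 to 37.1 TPM in the ACA and 42.05 to 62.7 TPM in the FRP (-0.74 ± 0.13, adjusted p = 0.12). The layer 5 list as a whole had a median of 0.012, with 6 positive and 6 negative members. Layer 6b markers Cplx3 and Ctgf were close in the ACA (7.55 TPM ± 0.789 and 6.51 TPM ± 2.61) and the FRP (6.71 TPM ± 1.44 and 8.70 TPM ± 2.48) and far below the ENT (50.6 and 63.5 TPM, SD, n = 3). The 4 claustral markers tested likewise overlapped, with Nr4a2 at 7.60 TPM ± 5.64 in the ACA, 6.59 TPM ± 3.801 in the FRP and 70.5 TPM in the ENT, although its count difference of -1.17 ± 0.35 (adjusted p = 0.21, and 0.031 without FRP replicate 2) had the other sign. It was the claustral marker called without FRP replicate 2, higher in the FRP, beside 4.4% of all genes. It was also the 1 with an unadjusted p under 0.05 in the 6 libraries, where neither edgeR nor DESeq2 called any.

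**Figure D5:**
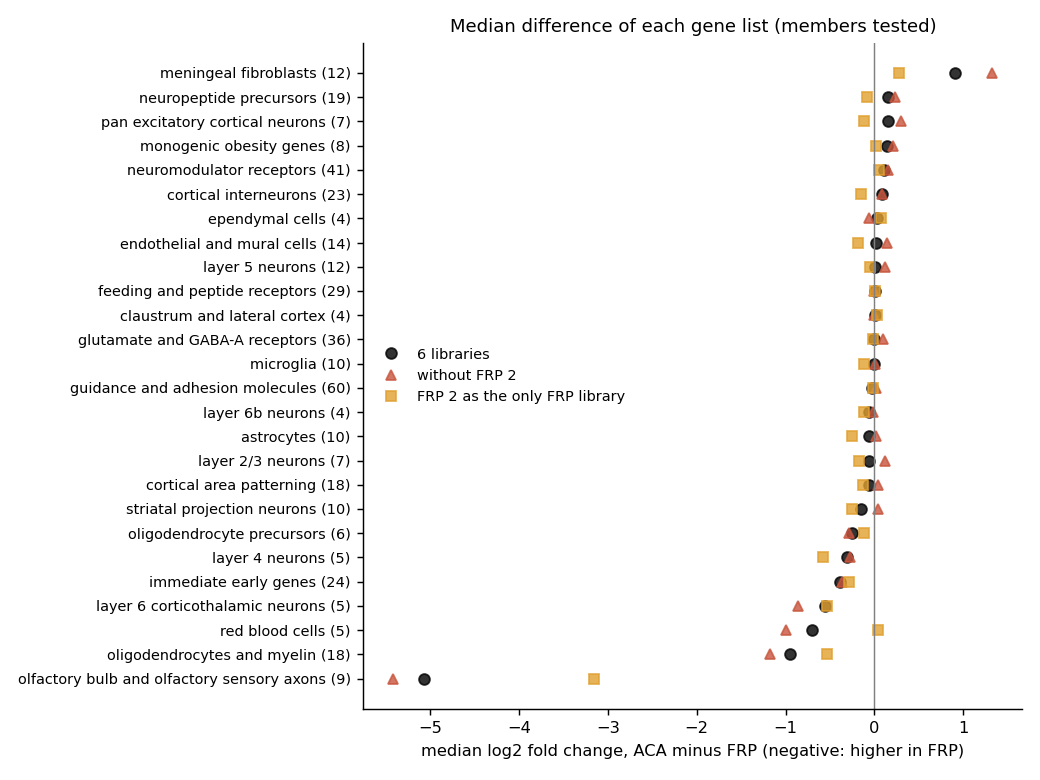
Median log2 fold change of ACA minus FRP (horizontal axis) of each gene list with 4 or more members tested (vertical axis, number tested in brackets), with all 6 libraries (black circles), without FRP replicate 2 (red triangles) and with FRP replicate 2 as the only FRP library (yellow squares). The bulb list lies at -5.07, -5.41 and -3.16 in these fits and the myelin list at -0.95, -1.18 and -0.53, while most lists lie near 0.

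Of 18 area patterning and 60 guidance and adhesion genes tested, none was called by edgeR with the 6 libraries. An unadjusted p under 0.05 was found for 7 and 24 of them, beside 2191 of all 15127 genes tested. DESeq2 called 3 patterning genes in each direction, and 3 guidance genes higher in ACA and 5 higher in FRP. Over all genes, DESeq2 called 1.2% higher in ACA and 2.19% higher in FRP. Without FRP replicate 2, 4 patterning genes were called in each direction, and 7 guidance genes higher in ACA and 9 higher in FRP, beside 2.26% and 4.4% of all genes. Etv5, an effector of fibroblast growth factor signalling at the rostral cortex, was at 105.3, 111.6 and 94.2 TPM in the ACA and 68.9, 85.9 and 81.3 TPM in the FRP, the 2 highest adult means (0.41 ± 0.12, adjusted p = 0.19, and 0.022 with the adult spread). Fgf17, one of the fibroblast growth factors that pattern the frontal cortex, was at 2.67 to 4.04 TPM against 1.20 to 1.41 TPM and had its highest adult mean in the ACA (1.30 ± 0.26, adjusted p = 0.12, and 0.044 without FRP replicate 2). Pax6 had the opposite sign, at 8.999 to 11.3 TPM against 28.4, 11.2 and 33.9 TPM (-1.58 ± 0.32, adjusted p = 0.13), with FRP replicate 2 inside the range of the ACA, as did Zbtb20 (-0.79 ± 0.14, adjusted p = 0.12). The nuclear receptor genes Nr2f1 and Nr2f2, which mark caudal and lateral cortex in the embryo, overlapped between the areas, and Nr2f2 was far higher in the ENT (8.54 TPM ± 1.52, 10.4 TPM ± 6.89 and 81.4 TPM in ACA, FRP and ENT).

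Of the guidance and adhesion genes, 9 lay higher in every ACA library and 10 higher in every FRP library, beside 8.52% and 8.6% of all tested genes. The ephrin receptor Epha4 had its highest adult mean in the ACA and its second highest in the FRP, at 129.3 to 157.6 TPM and 91.2 to 114.4 TPM (0.45 ± 0.12, adjusted p = 0.18). Its ligand Efna5 was at 21.6 TPM ± 2.62 against 16.0 TPM ± 1.24 (SD, n = 3, with 0.50 ± 0.14, adjusted p = 0.19). The netrin Ntn4 (-1.27 ± 0.21, adjusted p = 0.11) and the cadherins Cdh20 (-0.72 ± 0.11, adjusted p = 0.082) and Cdh4 (-0.62 ± 0.17, adjusted p = 0.18) did not overlap in the other direction.

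Peptide genes split by direction. Of 19 neuropeptide precursors tested none was called by edgeR with the 6 libraries, and 10 had an unadjusted p under 0.05. DESeq2 called 2 higher in ACA and 5 higher in FRP, beside 1.2% and 2.19% of all genes. The fit without FRP replicate 2 called 3 higher in ACA and 5 higher in FRP, beside 2.26% and 4.4% of all genes. In TPM, 4 lay higher in every ACA library and 5 higher in every FRP library, beside 8.52% and 8.6%. Trh, the precursor of thyrotropin-releasing hormone, was at 0.43, 0.65 and 0.27 TPM in the ACA and 3.23, 11.1 and 15.1 TPM in the FRP (-4.37 ± 0.66, adjusted p = 0.082). It had an adjusted p of 0.013 with FRP replicate 2 alone, unlike the enkephalin precursor Penk, at 24.1 to 29.1 TPM against 109.0, 35.7 and 112.6 TPM (-1.60 ± 0.35, adjusted p = 0.14 with all 6, 0.000345 without FRP replicate 2 and 0.25 with that library alone). Nmb, the neuromedin B precursor, was at 2.33 to 3.88 TPM against 9.69, 6.59 and 48.4 TPM, and the FRP mean was the highest of the 18 adult regions (-3.21 ± 0.78, adjusted p = 0.16). The 2 most abundant peptide genes of the list, Cck and Sst, did not reach the threshold in any of these fits, and Npy was at 295.5 TPM ± 23.2 against 272.1 TPM ± 51.5 (SD, n = 3).

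Several receptor genes were high in FRP replicate 1 alone among the 6 libraries. Oxtr, the oxytocin receptor, was at 3.44, 3.18 and 4.08 TPM in the ACA and 11.7, 2.64 and 3.86 TPM in the FRP, with 11.1 TPM in the ENT. Nmbr, the neuromedin B receptor, was at 0.79 to 1.38 TPM against 10.02, 0.80 and 1.46 TPM, with 11.4 TPM in the ENT, and the adrenergic receptor gene Adra2a at 2.73 to 4.09 TPM against 14.0, 4.65 and 4.04 TPM, with 24.8 TPM in the ENT. For all 3 genes the ACA and FRP replicates 2 and 3 overlapped, and none was called with the 6 libraries, while Nmbr (adjusted p = 0.0088) and Adra2a (adjusted p = 0.023) were called with the adult spread. EdgeR called none of 29 feeding and peptide receptors, 41 neuromodulator receptors and 36 glutamate and GABA-A receptors tested with the 6 libraries. An unadjusted p under 0.05 was found for 10, 12 and 8 of them, beside 2191 of all 15127 genes tested. DESeq2 called 3, 3 and 2 higher in ACA and 2, 4 and 2 higher in FRP, beside 1.2% and 2.19% of all genes. Without FRP replicate 2, 3, 3 and 4 were called higher in ACA and 5, 4 and 1 higher in FRP, beside 2.26% and 4.4% of all genes. In TPM, 6, 8 and 7 lay higher in every ACA library and 2, 5 and 3 higher in every FRP library, beside 8.52% and 8.6%. The medians of the 3 lists were 0.01, 0.11 and -0.001. Among the FRP libraries, Vipr2, a receptor for vasoactive intestinal peptide, was instead lowest in replicate 2, though still above the ACA. It was at 0.34 to 0.84 TPM in the ACA and 7.999, 1.16 and 11.4 TPM in the FRP (-4.21 ± 0.84, adjusted p = 0.13).

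No gene of monogenic obesity was called by edgeR with the 6 libraries, and 2 had an unadjusted p under 0.05. DESeq2 called 1, higher in the ACA, beside 1.2% of all genes. All 8 tested had a positive difference with the 6 libraries, with a median of 0.142 beside -0.008 over all genes. With FRP replicate 2 alone the median was 0.013, with 5 positive and 3 negative members. Bdnf was the member called without FRP replicate 2, higher in the ACA, beside 2.26% of all genes. Lepr, the leptin receptor, was at 0.71 to 1.89 TPM in the ACA and 1.25 to 2.74 TPM in the FRP, and its count difference of 0.42 ± 0.40 (adjusted p = 0.68) had the other sign than its TPM means. Mc4r was at 2.02 TPM ± 0.830 against 1.95 TPM ± 0.233 and Ntrk2, the receptor of brain-derived neurotrophic factor, at 186.2 TPM ± 10.01 against 189.8 TPM ± 5.32 (SD, n = 3). The TPM means of Ntrk2 thus also had the other sign than its count difference. Of the 190 obesity-associated genes that the study compiled, 178 were tested and none was called by edgeR with the 6 libraries. An unadjusted p under 0.05 was found for 38. DESeq2 called 6 higher in ACA and 3 higher in FRP, beside 1.2% and 2.19% of all genes. Leaving out FRP replicate 2 gave 8 calls higher in ACA and 11 higher in FRP, beside 2.26% and 4.4% of all genes. Of its 190 autism-associated genes, 189 were tested and none was called by edgeR with the 6 libraries. An unadjusted p under 0.05 was found for 32, beside 2191 of all 15127 genes tested. DESeq2 called 4 higher in ACA and 7 higher in FRP, beside 1.2% and 2.19% of all genes. With FRP replicate 2 left out the calls were 10 and 15, beside 2.26% and 4.4%. The medians of both lists, -0.034 and -0.007, were close to that of all genes.

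Immediate early genes, which neurons switch on within minutes of activity, varied widely among replicates. The 24 genes had a median of -0.388 and 18 negative members, and none was called by edgeR with the 6 libraries (6 unadjusted p under 0.05). In TPM, 3 of the 24 lay higher in every ACA library and none higher in every FRP library, beside 8.52% and 8.6% of all tested genes. DESeq2 called 2 higher in the ACA, beside 1.2% of all genes. Without FRP replicate 2 the calls were 2 higher in ACA and 1 higher in FRP, beside 2.26% and 4.4%. Arc, a synaptic scaffold gene of this class, was at 54.2, 295.9 and 88.2 TPM in the ACA and 244.6, 246.8 and 157.2 TPM in the FRP (-0.55 ± 0.56, adjusted p = 0.71). Fos was at 18.4, 63.4 and 28.1 TPM against 104.3, 52.8 and 74.7 TPM (-1.13 ± 0.44, adjusted p = 0.30). In both genes ACA replicate 2 was the highest ACA library and lay within the range of the FRP for Fos and above it for Arc.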

How the data were processed

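RNA of punch biopsies was sequenced as single reads. The authors called bases with CASAVA 1.8.2 and ran kallisto on GRCm38 transcripts, and deposited estimated counts per transcript. The authors also deposited TPM, summed per gene over transcripts, which gives the levels printed here. The study lists collection and preparation batches for the samples of each region, partly different for ACA and FRP. That list carries no replicate numbers, so the batch of a given library was not known here, and no within-batch value or batch term was fitted.

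Estimated counts were summed per gene (98.7% of 109282 transcripts matched a gene, and 192 genes were renamed through RefSeq synonyms) and rounded. Unmatched transcripts held 0.582% to 0.612% of the counts. In 307 of 32368 genes, matched transcripts and the gene TPM differed by more than 1% plus 0.05 TPM. edgeR 4.0.16 (TMM, filterByExpr, quasi-likelihood test, R 4.3.3) compared ACA with FRP over 6 libraries, with Benjamini-Hochberg adjustment and a threshold of 0.05. The standard error is the log2 fold change over the square root of F. Alternatives used DESeq2 1.42.0, limma 3.58.1 on log2(TPM + pseudocount of 0.1, 0.5 or 1), other scalings, filters and sets of libraries, and left out each library. On simulated data for this comparison (14961 genes), 74 of 100 genes with a log2 fold of 1 and 93 of 99 with 2 were called, and 6 of 14762 unchanged genes. The simulated libraries of a gene all had the same spread, and none stood apart as FRP replicate 2 did. These shares therefore do not give the power of the real comparison, and a gene without a call may still differ.

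Named by rule were the 12 largest called differences in each direction that do not overlap in TPM, with a mean of 5 TPM or more in the higher group, and the first 2 members of each list. The region pair, the lists and the further genes were chosen with earlier results of these data known. The estimated counts carry no molecular identifiers, and depth limits genes of few counts. Some members of the lists are not reported here.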

Additional observations from a re-analysis of the deposited data

How the results depend on the processing

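The 6 libraries gave 3 genes higher in ACA and 1 higher in FRP. Other choices gave, in the same order, 187 and 342 (DESeq2), 21 and 40 (no filter on low counts), 53 and 415 (all 70 libraries), 108 and 522 (57 adult libraries), 7 and 17 (9 cortical libraries) and 0 and 0 (limma without a filter, where 2009 genes had an unadjusted p under 0.05). Leaving out 1 library at a time gave 1 to 348 and 0 to 679, the highest without FRP replicate 2. Without FRP replicates 1 and 3, a choice made after seeing the data, 12 and 45 were called. The cause of these moves was not tested. No pairing by replicate number was seen: the deviations of same-numbered libraries correlated at -0.04, 0.045 and 0.03 over 14804 genes. Differently numbered libraries gave -0.1 to 0.075. Which libraries share animals is not given, so a weak pairing could be missed in these values. A fit with the replicate block called 1 and 2. Lypd1, Trpc6, Vwa5b1 and Gsn kept their direction in all 19 alternatives and were called in 18, 10, 5 and 11 of them. With RLE factors 2 and 1 genes were called, and with library totals 3 and 1. Among the genes named, 34 changed sign under some alternative (82 changes), none with a call on either side.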
